A study of Mus musculus with 70 samples.

Results

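CD45- cells of histotripsy-treated B16F10 tumors were compared with CD45- cells of histotripsy-abscopal tumors 7 days after ablation. The comparison rests on 3 treated and 4 abscopal libraries, 7 of the 70 libraries in the series, which were chosen by their labels alone and read across every named gene of the count table. Histotripsy is a focused ultrasound method that disrupts tissue by cavitation, and B16F10 is a pigmented mouse melanoma line. Each mouse, a C57BL/6 of either sex at an age of 6 to 8 weeks, carried a tumor under the skin of each flank. A histotripsy-treated tumor had received partial ablation, so that part of it was left intact. A histotripsy-abscopal tumor was the untouched tumor on the opposite flank of a mouse treated in this way. The table also holds 11 control libraries from tumors of mice given sham ablation, which are shown here as the background level. The labels do not give the mouse, the sex or a processing batch for any library, and they do not say which treated and abscopal tumors shared a mouse. The p-values below therefore measure the spread between libraries.

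CD45, the product of Ptprc, marks nearly all leukocytes, so a CD45- sort keeps melanoma cells together with fibroblasts, pericytes and endothelial cells. Such cells do not make interferon gamma themselves but respond to it when T cells and natural killer cells release it nearby. The response runs through transcription factors such as IRF1 and switches on guanylate-binding proteins and immunity-related GTPases, the chemokines CXCL9 and CXCL10, and the machinery that loads peptides onto MHC class I. B16 melanoma cells are known for low MHC class I display that interferon can raise. Dying cells can in turn release molecules such as HMGB1 that alert the innate immune system. The comparison asks whether ablated and distant tumors of treated mice still differed in such programs a week after ablation.

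Depth and composition were checked first. The treated libraries held 1901387 to 3078056 counts, the abscopal libraries 1575433 to 3075353 and the control libraries 1335518 to 3132646. Ptprc had 0 counts in all 7 treated and abscopal libraries, against 665.5 to 1233.1 CPM (counts scaled to the same library total with TMM factors) in the 17 CD45+ libraries of the same day. Markers of neutrophils, natural killer cells and B cells summed to at most 3.07 CPM per list in the 7 libraries, and a list of 7 leukocyte genes summed to 9.16 to 27.6 CPM, nearly all of it the actin-bundling gene Lcp1. Melanoma markers summed to 33320 to 36097 CPM in the treated and 29580 to 34787.5 CPM in the abscopal libraries. The libraries did not all hold the same amount of stroma. The 10 fibroblast markers summed to 228, 95.8 and 4208 CPM in treated replicates 1, 2 and 3, to 2688, 1439, 75.7 and 454 CPM in abscopal replicates 1 to 4, and to a median of 66.5 CPM in the controls, with a highest value of 809. Treated replicate 3 and abscopal replicates 1 and 2 were thus above every control library.

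No gene differed between treated and abscopal tumors after correction for multiple testing. Of 10996 genes that passed the filter on low counts, 0 (0%) had an adjusted p under 0.05 in edgeR's quasi-likelihood test, and the smallest adjusted p was 0.609. DESeq2 and limma-voom also called 0 genes. At an unadjusted p under 0.05 edgeR gave 741 genes (6.74%), of which 406 (3.69%) were higher and 335 (3.05%) lower in treated tumors, with 639 genes for DESeq2 and 778 for limma-voom. The CPM ranges of the groups did not overlap for 309 genes that were higher in treated tumors (2.81%) and 368 that were lower (3.35%), 677 (6.16%) in all. The 95% interval of the difference lay within 2-fold either way for 8880 genes (80.8%) and within 1.5-fold for 5489 genes (49.9%). Leaving out treated replicate 3 moved the number of genes at an unadjusted p under 0.05 to 1357, and leaving out treated replicate 1 moved it to 450, with 0 genes called in either case. Without the filter on low counts 28569 genes were tested and 8 were called, 4 higher and 4 lower in treated tumors.

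**Figure D1:**
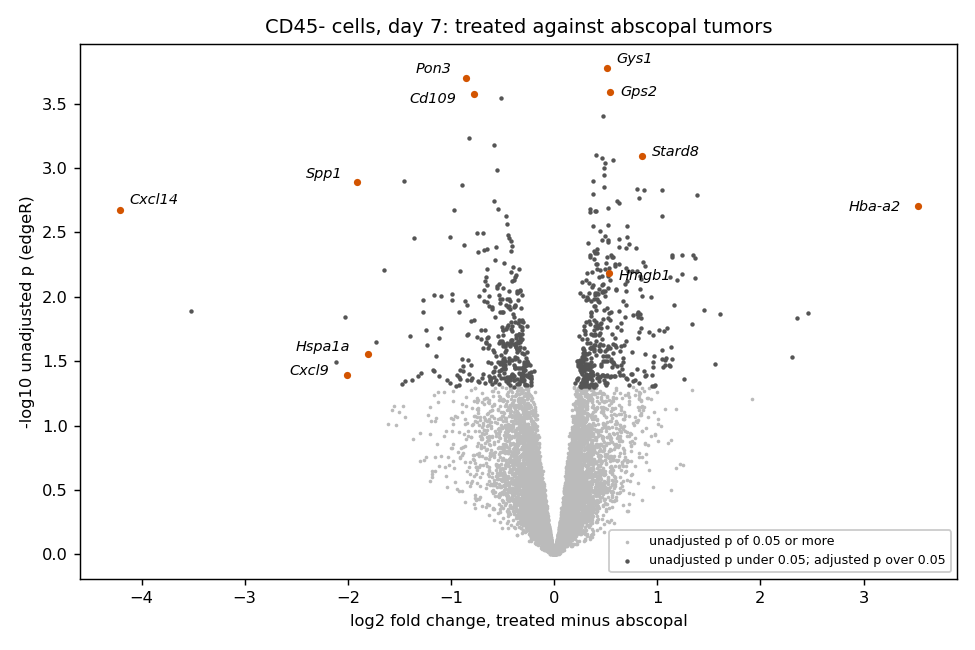
Difference between treated and abscopal tumors for the 10996 tested genes in CD45- cells on day 7. The x axis gives the log2 fold change of treated minus abscopal, the y axis -log10 of the unadjusted edgeR p, dark points are the 741 genes with an unadjusted p under 0.05, and orange points are genes named in the text; no gene passed after adjustment, and Cxcl14 and Hba-a2 lie farthest out at -4.21 and 3.52.

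Among the genes with the smallest p in the treated direction, Gys1 came first. It encodes the muscle form of glycogen synthase and lies on chromosome 7 at 45434844 to 45456619 on the plus strand of GRCm38. Gys1 was measured at 193, 161 and 137 CPM in the treated and at 104, 113, 132 and 110 CPM in the abscopal libraries, while the controls ran from 140 to 176 CPM with a median of 155. The lowest treated library lay just above the highest abscopal one, and all 4 abscopal libraries and treated replicate 3 lay under every control. The means were 164 ± 28.3 CPM (SD, n = 3) and 115 ± 12.3 CPM (SD, n = 4), and the log2 fold change was 0.51 with an SE of 0.11 (edgeR adjusted p = 0.609).

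Gps2, a subunit of the NCoR/SMRT corepressor complex, gave 61.8, 72.6 and 66.5 CPM in treated and 44.6, 50.8, 42.2 and 47.2 CPM in abscopal libraries. Incenp, the scaffold of the chromosomal passenger complex that guides chromosomes through mitosis, gave 101, 114 and 93.2 CPM against 73.1, 74.1, 65.0 and 65.0 CPM. Acvrl1, a receptor for BMP9 and BMP10, gave 63.6, 66.9 and 70.1 CPM against 46.5, 47.9, 46.3 and 49.7 CPM. In all 3 genes the groups did not overlap, and the control medians of 50.2, 85.4 and 55.2 CPM lay between the means of the groups. Their log2 fold changes were 0.54, 0.57 and 0.49.

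The other genes on this side were Zfp318, Rrp1, Stard8, Zfp768, Cdk11b, Casc4, Spats2 and Snx8, with log2 fold changes of 0.37 to 0.85. Rrp1 takes part in the processing of ribosomal RNA, and Cdk11b encodes a kinase active in transcription and splicing. Stard8, which encodes a GTPase-activating protein, had the largest difference of them, with 19.4, 21.4 and 15.7 CPM in treated and 8.19, 10.4, 10.7 and 13.5 CPM in abscopal libraries. Spats2 was even within groups, at 162, 165 and 162 CPM against 126.5, 129, 121 and 128 CPM. Among all 12 genes on this side the groups overlapped in Snx8 alone, and none passed the adjusted test. The genes were picked by small p in this comparison, which favors groups that are apart. Over all tested genes 2.81% were apart in this direction.

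On the other side Pon3 came first. It encodes a paraoxonase, an enzyme that hydrolyses lactones, and gave 14.2, 15.8 and 17.3 CPM in treated and 29.5, 35.8, 23.8 and 23.3 CPM in abscopal libraries. Every treated library lay under every abscopal one, with a log2 fold change of -0.85 and an SE of 0.19 (edgeR adjusted p = 0.609). Cd109, which encodes a membrane-anchored protein that dampens TGF-beta signaling, gave 34.5, 30.6 and 41.3 CPM against 58.3, 59.97, 60.1 and 63.8 CPM, a log2 fold change of -0.77. Tbl1xr1, which like Gps2 belongs to the NCoR/SMRT complex, gave 25.2, 29.8 and 30.4 CPM against 44.2, 42.9, 39.7 and 42.3 CPM. The groups were apart in both genes, and the control medians of 49.4 and 33.3 CPM lay between them.

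Lpgat1, Hs3st1, Tmed4, Cdkl2, Slc35f5, Efl1 and Snx24 also had groups that did not overlap, with log2 fold changes of -0.52 to -0.97. These genes, too, were picked by small p, and 3.35% of all tested genes were apart in this direction. Lpgat1 encodes a lysophospholipid acyltransferase, Hs3st1 a sulfotransferase that modifies heparan sulfate, and Efl1 a GTPase of ribosome maturation. Spp1, which encodes the secreted matrix protein osteopontin, gave 5.53, 3.50 and 17.8 CPM against 47.8, 49.98, 11.1 and 19.0 CPM. The groups overlapped, and the highest treated library and the highest 2 abscopal libraries were the 3 rich in fibroblast markers. The log2 fold change of Spp1 was -1.92 (SE 0.52), and the part of fibroblast content in it was not tested. Cd109 and Spp1 were among the 8 genes called when the filter on low counts was left out.

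**Figure D2:**
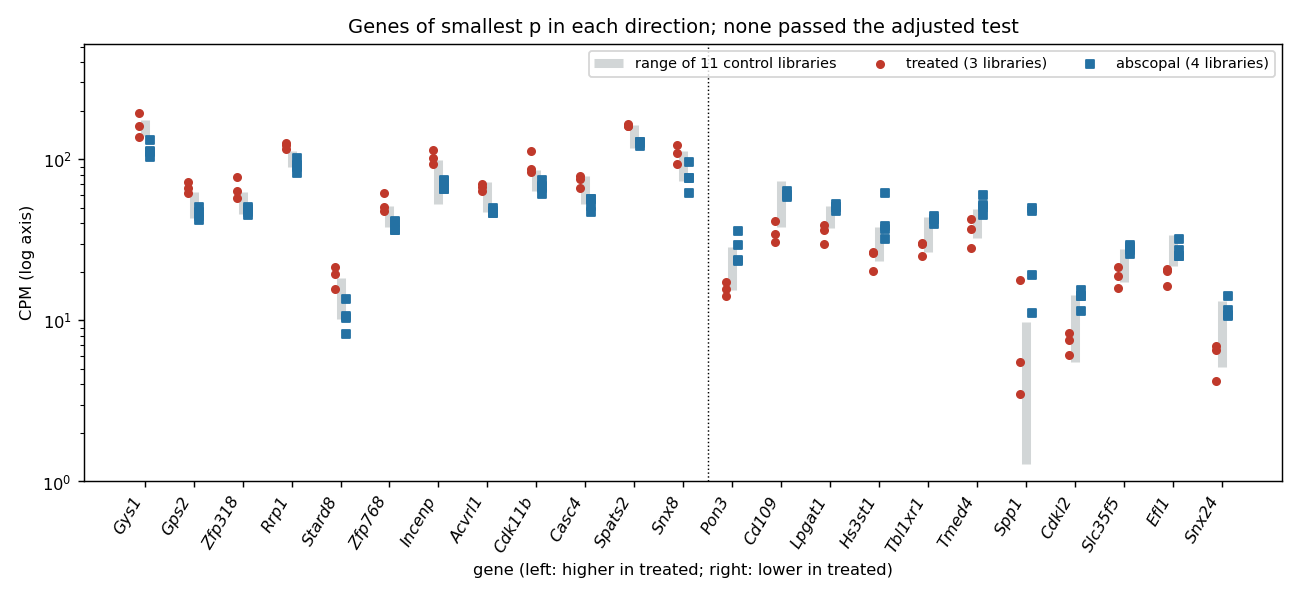
CPM on a log axis for 12 genes of smallest p that were higher and 11 that were lower in treated tumors, with treated libraries as red circles, abscopal libraries as blue squares and the range of the 11 control libraries as a grey bar. Groups overlap only in Snx8 and Spp1, most differences are under 2-fold, and none passed the adjusted test. The genes were picked by small p in this comparison, which favors groups that are apart.

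Interferon gamma response genes were lower in 2 of the 3 treated libraries than in the abscopal ones and as high in the third. Of 30 listed genes 22 passed the filter, 0 were called, and 0 of 22 had a log2 fold change above 0, against 5498 of 10996 (50%) over all tested genes. Their median log2 fold change was -0.72, against 0 over all tested genes, and ran from -0.32 without treated replicate 1 to -1.71 without treated replicate 3 when each library was left out in turn. Summed over the list, treated replicates 1, 2 and 3 held 237, 253 and 965.5 CPM, abscopal replicates 1 to 4 held 931, 708, 505 and 930 CPM, and the controls ran from 170 to 772 CPM with a median of 364. Treated replicates 1 and 2 thus lay under all 4 abscopal libraries and under the control median, and treated replicate 3 lay above them all. By gene, treated replicates 1 and 2 were both under every abscopal library for 19 of the 22 tested members (86.4%), against 10.5% of all tested genes, a count that was chosen after the sums were seen.

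Ifi47, an immunity-related GTPase gene, shows the pattern with 23.1, 22.8 and 76.4 CPM in treated and 87.8, 68.3, 59.8 and 100 CPM in abscopal libraries. Irgm2, of the same family, gave 4.15, 4.81 and 15.2 CPM against 11.8, 13.3, 12.4 and 18.4 CPM. The log2 fold changes were -0.99 (SE 0.60) and -0.84 (SE 0.52), both with an edgeR adjusted p of 0.770. Cxcl9, a chemokine that attracts activated T cells, gave 3.11, 2.62 and 25.1 CPM in treated and 107, 35.8, 1.04 and 5.52 CPM in abscopal libraries. Its 3 high libraries were those rich in fibroblast markers, and its fold change went from -2.01 to 0.03 on the log2 scale without them.

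Treated replicate 3 and abscopal replicate 1 were richest in fibroblast markers, at 4208 and 2688 CPM. They also had the highest sums of the interferon gamma list, at 965.5 and 931 CPM. Abscopal replicate 4 came next at 930 CPM, with 454 CPM of fibroblast markers. Abscopal replicate 3 held 75.7 CPM of fibroblast markers and 505 CPM of the interferon gamma list, while treated replicate 2 held 95.8 CPM and 253 CPM. With the 3 fibroblast-rich libraries left out the list median was -1.65, and with the mean fibroblast marker level as a covariate it was -0.76. Both alternatives were chosen after the data were seen, neither gave a called gene, and the 4 libraries that remain in the first are 2 against 2. The part of fibroblast content in the interferon gamma difference was not tested. In bulk libraries, fewer responding cells and less RNA of these genes per cell cannot be told apart.

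Type I interferon-induced genes, many of which act against viral replication, were also low in treated replicates 1 and 2. Of 34 listed genes 30 were tested and 0 called, 4 had a log2 fold change above 0, and the median was -0.39. When each library was left out in turn it ran from -1.10, without treated replicate 3, to -0.09. The sums were 606, 657.5 and 1345 CPM in treated and 1252, 1089, 945 and 1021 CPM in abscopal libraries, so that treated replicates 1 and 2 again stood under the abscopal range. The highest 3 sums were those of the 3 fibroblast-rich libraries, the list median was -0.93 without them, and the part of fibroblast content in this difference was not tested. Stat2 and Irf9, which encode partners of the factor that type I interferon activates, gave 14.5, 11.4 and 24.1 CPM against 24.6, 25.8, 20.7 and 22.1 CPM, and 19.4, 20.6 and 29.3 CPM against 29.8, 29.6, 28.0 and 42.3 CPM. Dhx58, an RNA sensor gene, was low throughout at 1.04 to 3.66 CPM in treated and 3.75 to 6.75 CPM in abscopal libraries. Stat2 was highest in the 3 fibroblast-rich libraries. Dhx58 was the 1 of these 3 genes without overlap, with a log2 fold change of -1.38 (SE 0.65).

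MHC class I presentation genes had 17 of 22 members tested, 0 called, 2 above 0 and a median of -0.46. With each library left out in turn the median ran from -0.996, without treated replicate 3, to -0.19. Their sums were 2098.5, 3336 and 4147 CPM in treated and 4136, 3687, 3268 and 4120 CPM in abscopal libraries, with a control median of 2599 CPM. Treated replicate 1 lay under the abscopal range, treated replicate 2 inside it and treated replicate 3 just above it. H2-K1, a classical class I heavy chain gene, gave 126.5, 218 and 424 CPM against 452, 316.5, 351 and 339 CPM. Its log2 fold change was -0.52 with an SE of 0.35, and as a member of a family of near-identical genes its counts are uncertain. Erap1, which trims peptides for class I, gave 7.60, 13.1 and 22.5 CPM against 19.0, 22.1, 15.2 and 26.4 CPM. In both genes the highest treated library was replicate 3, and the groups overlapped.

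MHC class II genes were low in these cells: 7 of 12 were tested, and the list summed to 75.7 to 147 CPM in treated and 127 to 192 CPM in abscopal libraries, against at least 9448 CPM in the CD45+ libraries. H2-Eb1 gave 3.46, 3.06 and 13.6 CPM in treated and 14.8, 14.99, 12.4 and 30.7 CPM in abscopal libraries, and H2-Ab1 gave 4.49, 4.38 and 13.1 CPM against 15.1, 12.5, 11.8 and 20.9 CPM. Treated replicates 1 and 2 were under all abscopal libraries in both genes, which encode beta chains of the class II molecule. The list median was -0.91, with 1 of 7 tested members above 0 and 0 called. It ran from -1.72 without treated replicate 3 to -0.49 when each library was left out in turn. The 13 monocyte and macrophage markers summed to 7 to 13.1 CPM in treated and 8.75 to 15.3 CPM in abscopal libraries, with overlap, 3 of them were at 0 in all 7 libraries, and their part in the class II values was not tested.

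Inflammatory chemokines were highest in the 3 fibroblast-rich libraries. Of 22 listed genes 8 were tested, 0 were called and 0 had a log2 fold change above 0. A gene low in most libraries passes the filter through those where it is high, so the filter partly sets this direction. The median of -0.91 ran from -2.98 without treated replicate 3 to 0.13 without abscopal replicate 1. The sums were 20.4, 8.31 and 131 CPM in treated and 200, 111, 12.1 and 38.0 CPM in abscopal libraries. Cxcl14, a chemokine gene of fibroblasts and epithelia, gave 1.04, 0 and 2.09 CPM against 56.4, 15.8, 0.35 and 1.84 CPM, and Ccl2, the monocyte attractant, gave 1.73, 0.87 and 10.99 CPM against 18.7, 17.1, 0.35 and 4.91 CPM. Both were highest in abscopal replicates 1 and 2. Ccl5, which attracts T cells and monocytes, was low but apart, at 2.62 to 2.76 CPM in treated and 3.68 to 6.55 CPM in abscopal libraries. Acute phase and complement genes, 13 of 20 tested with 5 above 0 and 0 called, had a median of -0.12. It ran from -3.31 without treated replicate 3 to 0.26 when each library was left out, so its direction turned. The acute phase gene Saa3 ranged from 1.31 to 109.5 CPM with its 3 highest values in the fibroblast-rich libraries.

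Matrix genes varied more between libraries of a group than between groups. Of 30 stromal matrix genes 29 were tested, 10 were above 0 and 0 were called, with a median of -0.15 over all 7 libraries. With each library left out in turn the median ran from -2.56, without treated replicate 3, to 0.265. Col3a1, a fibrillar collagen gene, gave 54.6, 19.2 and 1126 CPM in treated and 677, 344, 17.3 and 85.9 CPM in abscopal libraries. Its log2 fold change of 0.48 had an SE of 1.12, and it went to -2.915 without treated replicate 3. The collagen-binding proteoglycan gene Lum was spread in the same way, at 10.7, 6.12 and 36.1 CPM against 21.6, 9.99, 1.04 and 7.36 CPM. Among 9 tested fibroblast markers 6 were above 0, with a median of 0.30 that went to -2.915 without the same library, and 0 were called. The list as a whole thus had no stable direction. Pdgfrb, a PDGF receptor gene on it, gave 2.07, 1.75 and 8.37 CPM against 18.7, 11.7, 2.76 and 3.68 CPM. It was highest in the 3 fibroblast-rich libraries, the groups overlapped, and its log2 fold change of -1.29 (SE 0.59) ran from -2.275 to -0.945 when single libraries were left out (edgeR adjusted p = 0.721). Without abscopal replicate 1, without abscopal replicate 2 or without all 3 fibroblast-rich libraries it was under the filter on low counts and was not tested.

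Several vascular genes were high in abscopal replicate 1 alone. Kdr, the main receptor for VEGF, gave 3.8, 3.50 and 12.04 CPM in treated and 53.7, 9.99, 0.69 and 3.07 CPM in abscopal libraries. Rgs5, a pericyte gene, gave 7.95, 5.25 and 13.1 CPM against 54.7, 7.91, 2.42 and 1.84 CPM. The adhesion gene Pecam1 and the smooth muscle actin gene Acta2 were also highest in abscopal replicate 1, at 23.9 and 38.7 CPM. Without that library the log2 fold changes of Kdr, Rgs5, Pecam1 and Acta2 turned from -1.51, -1.02, -1.36 and -1.14 to 0.44, 1.045, 0.59 and 0.15. Vwf, the von Willebrand factor gene of endothelium, did not share this and gave 13.1 to 20.7 CPM in treated and 11.1 to 16.6 CPM in abscopal libraries. The 10 endothelial markers summed to 183.5 CPM in abscopal replicate 1 and to 47.0 to 90.9 CPM in the other 6 libraries. Timp1, a protease inhibitor made by stroma, gave 10.02, 13.1 and 31.4 CPM against 87.2, 46.6, 13.1 and 18.4 CPM (log2 fold change -1.27, SE 0.46), again with its highest values in abscopal replicates 1 and 2. Its log2 fold change ran from -1.89 to -0.58 when single libraries were left out.

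**Figure D3:**
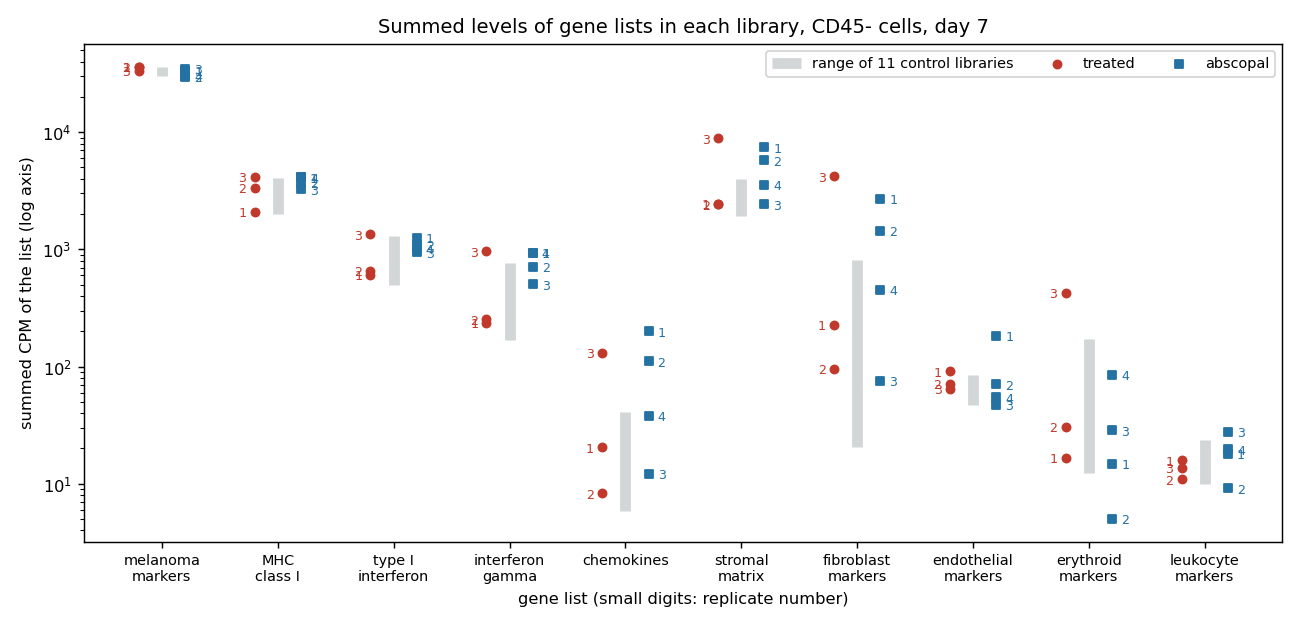
Summed CPM of 10 gene lists in each library on a log axis, with treated libraries as red circles, abscopal libraries as blue squares, replicate numbers as small digits (overprinted where libraries are close) and the control range as grey bars. Melanoma markers are level across libraries, treated replicates 1 and 2 lie under the abscopal libraries for both interferon lists, and treated replicate 3 and abscopal replicates 1 and 2 stand above the controls for fibroblast markers, stromal matrix genes and chemokines.

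Pigment genes were expressed at close levels in both kinds of tumor. Of 18 pigment genes 17 were tested, 5 were above 0 and 0 were called, with a median of -0.07. Dct, which encodes dopachrome tautomerase of the melanin pathway, gave 26913, 25767 and 23623 CPM in treated and 23102, 19608, 23669 and 20514 CPM in abscopal libraries. The groups overlapped by a narrow margin, with a log2 fold change of 0.23 and a 95% interval of 0.02 to 0.44. Pmel, the gene of the melanosome fibril protein, had an interval of -0.38 to 0.10, and Tyrp1, an enzyme of melanin synthesis, one of -0.55 to 0.14. Cdh19, a cadherin gene of neural crest cells, gave 67.0, 63.9 and 65.9 CPM against 94.0, 74.5, 112 and 85.2 CPM, without overlap (log2 fold change -0.48, SE 0.16). Dedifferentiation and neural crest genes had 0 of 10 tested members above 0, a median of -0.36 and 0 called. Their median ran from -0.58 without treated replicate 3 to -0.17 when each library was left out in turn. Cd44, the hyaluronan receptor gene of that list, gave 378, 543 and 709 CPM in treated and 633, 678, 788 and 738 CPM in abscopal libraries, with treated replicate 3 inside the abscopal range.

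Among cell death and damage genes, Hmgb1 was higher in every treated library than in any abscopal one, without passing the adjusted test. Hmgb1, a chromatin protein that alerts immune cells when released, gave 192, 274 and 181 CPM in treated and 160, 154.5, 125 and 158 CPM in abscopal libraries, with a control median of 147 CPM. Treated replicate 2 stood above all controls as well, and the log2 fold change was 0.54 with an SE of 0.18 (edgeR adjusted p = 0.609). It ran from 0.32 to 0.64 when each library was left out in turn. The genome holds retrotransposed copies of Hmgb1, so its counts are uncertain, and RNA level says nothing of release of the protein. Mlkl, the pore-forming effector of necroptosis, gave 18.7, 23.6 and 25.1 CPM against 25.9, 31.6, 21.1 and 33.7 CPM, with overlap. Ripk3, the kinase that activates MLKL, had 0 to 2 counts per treated and 0 to 6 counts per abscopal library, Tnf had 1 to 4 and 0 to 1, and Ptgs2, a gene often read as a sign of ferroptosis, had 0 to 11 and 1 to 7. All 3 were under the filter and were not tested, and Ptgs2 was highest in the 3 fibroblast-rich libraries. Over the lytic cell death list 20 of 26 genes were tested, 5 were above 0 and 0 were called, with a median of -0.24.

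Ferroptosis and glutathione genes lay around no difference, with 24 of 30 tested, 11 above 0, 0 called and a median of -0.01. Gpx4, the lipid peroxidase that protects from ferroptosis, gave 17.97, 19.2 and 12.04 CPM in treated and 19.7, 4.998, 25.9 and 7.97 CPM in abscopal libraries, with an interval of -0.66 to 0.89. Slc7a11, the cystine importer gene, had an interval of -0.60 to 1.05, and Acsl4, which prepares lipids for peroxidation, one of -0.53 to 0.24. The direction of all 3 turned when single libraries were left out. Hmox1, which degrades heme, gave 569, 346.5 and 345 CPM against 282, 209, 438 and 298 CPM, with overlap. Steap3, an iron reductase gene, was apart at 16.2, 21.0 and 20.9 CPM against 30.1, 25.4, 25.2 and 26.4 CPM (log2 fold change -0.48, SE 0.215), and Sat1, of polyamine breakdown, gave 9.67, 8.75 and 17.3 CPM against 24.2, 14.6, 20.4 and 12.3 CPM, with overlap.

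Heat shock genes had 5 of 20 tested members above 0, 0 called and a median of -0.12, which was -0.23 without treated replicate 2 and -0.01 without treated replicate 3. Hsp90ab1, an abundant chaperone gene, gave 5879, 8455 and 5299 CPM in treated and 5417, 5619, 4461 and 5576 CPM in abscopal libraries, where treated replicate 2 alone stood above the rest. The same library was alone in Calr, a chaperone of the endoplasmic reticulum, at 1316 CPM against 675 to 801 CPM in the other 6 libraries. Cryab, a small heat shock gene, was apart in the other direction with 67.7, 98.0 and 117 CPM against 143, 127, 147 and 131 CPM (log2 fold change -0.55, SE 0.19). Hspa1a, the inducible HSP70 gene, was low, with 1.73, 0.87 and 5.76 CPM against 24.2, 7.91, 1.04 and 2.45 CPM. It was highest in the 3 fibroblast-rich libraries, and its counts cannot be fully separated from those of its near-identical neighbor Hspa1b. Of the 30 genes of the unfolded protein response, all tested and 0 called, 18 were above 0, with a median of 0.05. It turned to -0.02 on library totals, where the median of all tested genes was -0.07. Xbp1, the transcription factor gene of that response, lay under the abscopal range with 28.7, 36.3 and 42.4 CPM against 51.4, 48.7, 49.4 and 50.9 CPM (log2 fold change -0.50, SE 0.22).

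Immediate early genes had 22 of 25 members tested, 6 above 0 and a median of -0.13, TNF and NF-kB feedback genes 12 of 24, 2 above 0 and a median of -0.16, and p53 target genes 13 of 15, 5 above 0 and a median of -0.07, with 0 called in each. Without treated replicate 3 the medians were -0.47, -0.36 and -0.2, and the first turned to 0.015 without abscopal replicate 4 and the last to 0.015 without abscopal replicate 3. The TNF and NF-kB median reached -0.006 at the other end of its range with single libraries left out. The TNF and NF-kB list summed to 852.5, 785 and 715.5 CPM in the 3 fibroblast-rich libraries and to at most 612 CPM in the others. Atf3, a stress-induced transcription factor, gave 43.2, 35 and 70.7 CPM in treated and 59.96, 46.2, 110 and 95.7 CPM in abscopal libraries, with overlap. Sod2, the mitochondrial superoxide dismutase gene that NF-kB induces, gave 87.1, 105 and 86.3 CPM against 124, 153, 125 and 102 CPM. Its groups overlapped by 1 library on each side (log2 fold change -0.45, SE 0.14). Id2, a target of BMP signaling, gave 1164, 844 and 1183 CPM against 766, 645, 948 and 602 CPM, also with 1 overlap on each side and a log2 fold change of 0.52 (SE 0.18), in a TGF-beta and BMP list with 11 of 20 tested, 5 above 0, 0 called and a median of -0.02 that ran from -0.12 to 0.11 when each library was left out. The angiogenic and wound growth factor list had 10 of 19 tested, 2 above 0, 0 called and a median of -0.16, which was -0.47 without treated replicate 3 and -0.07 without treated replicate 2. It summed to 441, 413.5 and 366.5 CPM in the 3 fibroblast-rich libraries and to at most 332 CPM in the others.

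Lists of growth and metabolism had medians slightly above 0 on the TMM scale. Cell cycle genes had 23 of 29 tested members above 0 and a median of 0.06. It turned to -0.01 on library totals, where the median of all tested genes was -0.07. Cenpe, a kinetochore motor gene of mitosis, gave 103, 101 and 101.5 CPM in treated and 78.0, 80.4, 69.1 and 92.0 CPM in abscopal libraries, without overlap (log2 fold change 0.36, SE 0.16). Cholesterol synthesis genes had 16 of 22 above 0 and a median of 0.13, which stayed above 0 at 0.05 on library totals, with Pmvk at 75.0, 59.9 and 37.1 CPM against 41.0, 46.2, 32.5 and 36.2 CPM and Fdps, also of the mevalonate pathway, at 97.8, 80.9 and 58.6 CPM against 62.9, 68.3, 49.8 and 69.3 CPM. Ribosomal protein genes had 25 of 34 above 0 and a median of 0.11, with Rps15 and Rpsa apart at log2 fold changes of 0.28 and 0.23. The median was 0.037 on library totals and ran from 0.012 to 0.166 when each library was left out. None of these lists held a called gene, and ribosomal protein genes share reads with many pseudogenes.

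Glycolysis and hypoxia genes had 16 of 29 tested members above 0 and a median of 0.04, and respiratory chain genes 16 of 29 and a median of 0.02, with 0 called. Both medians turned under 0 on library totals, where the median of all tested genes was -0.07. Hk2, which encodes the first enzyme of glycolysis in many tumors, gave 2144, 1250 and 1248 CPM in treated and 1252, 1164, 1411 and 954 CPM in abscopal libraries, so that treated replicate 1 alone was high. The mitochondrial gene mt-Co1 gave 4090, 3086 and 1509 CPM in treated libraries and at most 2252 CPM in abscopal ones, and mt-Nd2 gave 4225, 4567 and 2649 CPM and at most 3007 CPM. Both were high in treated replicates 1 and 2 and not in replicate 3. Mitochondrial transcripts as a whole made up 10.7%, 8.46% and 6.64% of counts in the treated and 7.72% to 8.04% in the abscopal libraries, and the part of this share in the mt-Co1 and mt-Nd2 values was not tested.

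Hemoglobin transcripts were high in treated replicate 3 alone. Hbb-bs gave 7.60, 18.4 and 274 CPM in treated and 9.50, 2.08, 19.4 and 55.8 CPM in abscopal libraries, and Hba-a2 gave 0.69, 4.38 and 29.8 CPM against 0.98, 0, 1.04 and 1.84 CPM. The log2 fold change of Hbb-bs went from 2.31 to -0.63 without treated replicate 3, and that of Hba-a2 from 3.52 to 1.34. The globin genes come in near-identical pairs, and red cells were lysed before sorting. The hemoglobin and heme list had 10 of 13 tested, 8 above 0, 0 called and a median of 0.31 that went to -0.05 without treated replicate 3. Lysosome and autophagy genes had 23 of 25 tested, 7 above 0, 0 called and a median of -0.09, and matrix proteases and inhibitors 17 of 27, 6 above 0, 0 called and a median of -0.30, which was -0.51 without treated replicate 3 and -0.03 without treated replicate 2. The protease list, too, summed highest in the 3 fibroblast-rich libraries. Ctsb, a lysosomal protease gene on both lists, was apart with 289, 315 and 422 CPM in treated and 463, 511, 426 and 525 CPM in abscopal libraries (log2 fold change -0.49, SE 0.20), and Ctsl, its relative, gave 100, 136 and 190 CPM against 184, 195, 175 and 185 CPM.

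**Figure D4:**
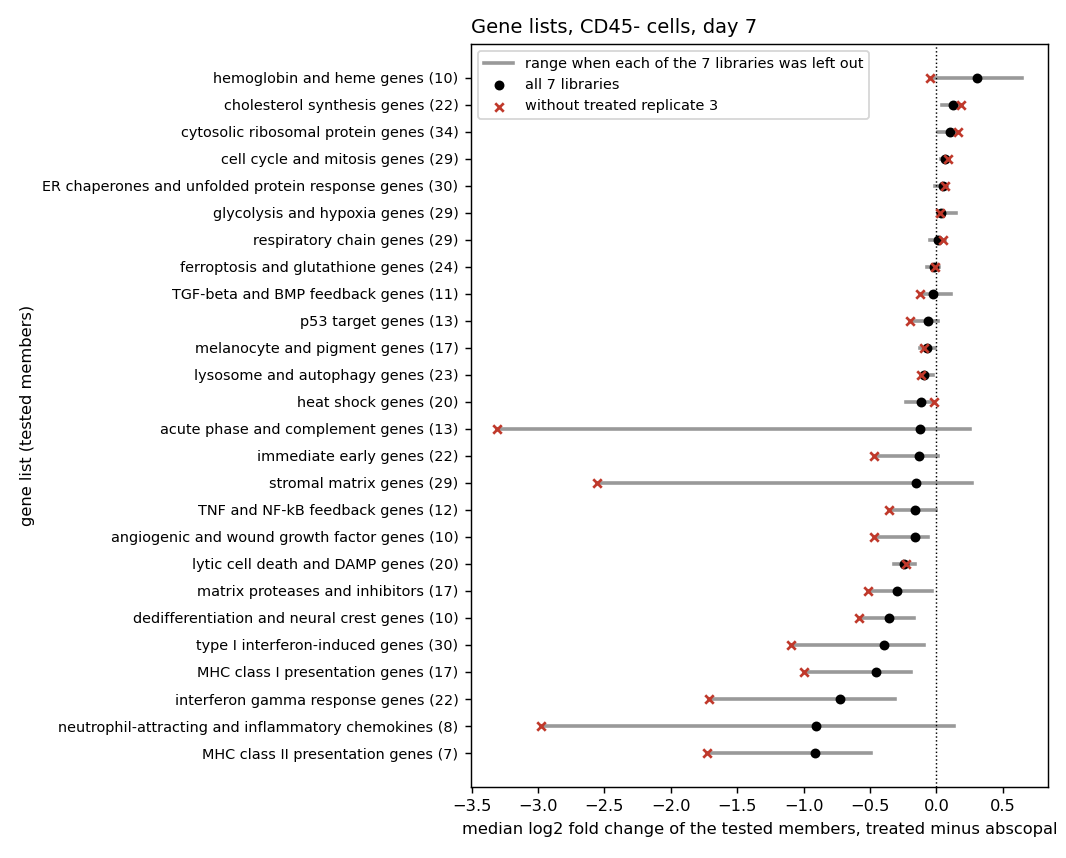
Median log2 fold change of treated minus abscopal over the tested members of each of 26 gene lists (number tested in brackets). Black points are values from all 7 libraries, grey lines span the values when each library was left out, red crosses are values without treated replicate 3, and the dotted line is the median of all tested genes at 0; the interferon, MHC, matrix, acute phase and chemokine lists move far to the left without that library, while metabolic and proliferation lists stay near 0.

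Over the most variable genes the libraries did not separate by treatment. On the 500 most variable genes, of which 273 had passed the filter on low counts, the first 3 principal components held 63.1%, 12.9% and 8.79% of the variance. Treated replicates 1 to 3 scored -15.8, -19.2 and 25.2 on the first component and abscopal replicates 1 to 4 scored 23.7, 8.59, -17.2 and -5.22. The order along it was that of the fibroblast-rich libraries at one end, and collagen and matrix genes such as Col5a1, Col6a3 and Dcn, named after their loadings were seen, were among the 25 genes of largest positive loading. The pseudo-F of treated against abscopal was 0.402, which 26 of the 35 possible divisions into 3 and 4 libraries reached (one-sided exact permutation test, p = 0.743). The smallest p that 35 divisions allow is 1 in 35.

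The same 2 kinds of tumor had been sampled on day 3, with 7 treated and 7 abscopal CD45- libraries, and the difference of treated minus abscopal was compared between the days in a single fit over 11548 genes. In all 2 genes (0.0173%) passed in this interaction test, Gys1 and Zfp768, against 981 (8.49%) at an unadjusted p under 0.05. Both went from lower in treated tumors on day 3 to higher on day 7. Gys1 ran from 96.0 to 154 CPM with a median of 107 in treated and from 116 to 202 CPM with a median of 165 in abscopal libraries on day 3, where the control median was 163 CPM. The day 3 treated and the day 7 abscopal libraries were thus the low ones, while the other pair lay near the controls. The interaction was 1.03 on the log2 scale (SE 0.18, edgeR adjusted p = 0.0111), made of -0.52 on day 3 and 0.51 on day 7.

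Zfp768, a zinc finger gene on chromosome 7 at 127342795 to 127345589 on the minus strand, gave 61.8, 50.8 and 47.6 CPM in treated and 41.6, 36.2, 40.8 and 36.2 CPM in abscopal libraries on day 7. On day 3 the treated median was 37.4 CPM and the abscopal median 53.1 CPM, with a control median of 55.5 CPM. The interaction was 0.88 (SE 0.17, edgeR adjusted p = 0.0476). No gene was called with only the 4 groups in the fit, or without treated replicate 1 or abscopal replicate 1 of day 7, and leaving out other single libraries gave 1 to 3 genes, always with Gys1. Zfp768 was not called in most of these fits, nor on library totals. Of the other genes with the smallest p, none called, Zfp318, Espn and Pnisr had interactions of 0.825, 0.89 and 0.73, and Arhgap18, Sec13 and Stard13 had -0.72, -0.895 and -1.51, with edgeR adjusted p of 0.202 to 0.321. Sec13, a coat protein gene of vesicles leaving the endoplasmic reticulum, had a treated median of 119.5 CPM and an abscopal median of 76.2 CPM on day 3, and 76.35, 75.2 and 91.6 CPM against 111, 93.3, 128 and 103 CPM on day 7. The values of each day were scaled within its own table, and the day cannot be told apart from any batch that went with it.

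**Figure D5:**
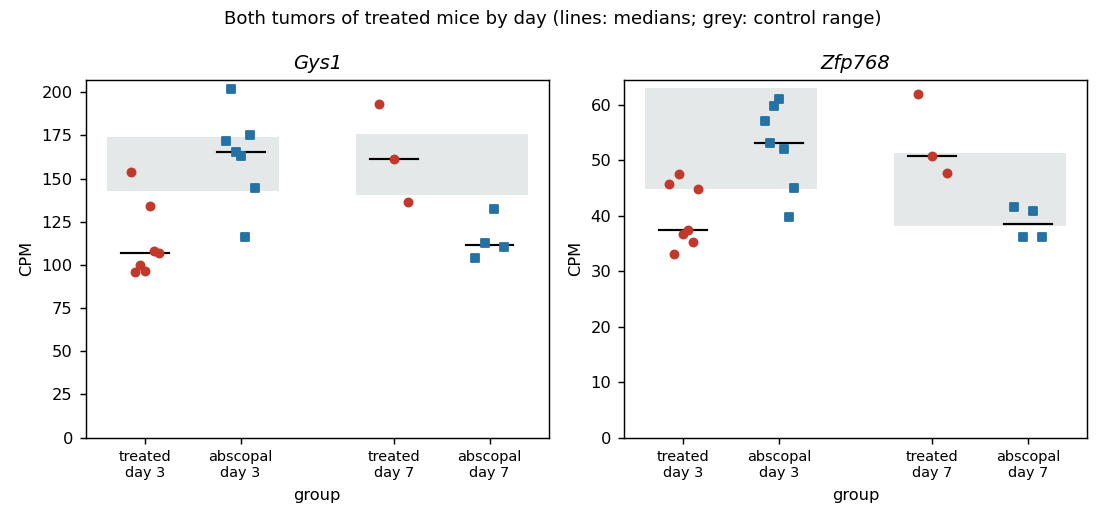
CPM of Gys1 and Zfp768 in treated (red circles) and abscopal (blue squares) CD45- libraries of day 3 and day 7, with group medians as lines and the control range of each day in grey. On day 3 the treated medians of 107 and 37.4 CPM lie under the abscopal ones, and on day 7 every treated library lies above every abscopal one.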

How the data were processed

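CD45- cells were sorted by flow cytometry and their RNA was made into 3′ tag libraries (Lexogen Quantseq) with molecular identifiers. The authors deposited raw counts of reads per gene, made per the labels and methods with bcl2fastq, Trim Galore 0.5.0, STAR 2.6.0 and featureCounts on GRCm38; the strand setting of the counting is not given in the sources used here. A 3′ tag count measures transcripts near their ends and does not scale with gene length, so levels of different genes are not compared. Reads of near-identical copies and of overlapping genes can be split or shared in such counts.

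The 55487 named lines of the day 7 CD45- table were used. The 234 lines whose symbol stands on more than 1 line were left out of the named genes. Counts were tested with edgeR 4.0.16 (R 4.3.3) by its quasi-likelihood test with TMM factors and Benjamini-Hochberg adjustment at 0.05, after its filter on low counts (minimum count 10, minimum total 15), in a fit of all 18 libraries (11 control, 3 treated, 4 abscopal). CPM are scaled within each table. The day 3 CD45- libraries entered 1 fit with those of day 7 for the interaction. Principal components were computed on Z-scores of log10(CPM + 1) of the 500 most variable genes with Python 3.11.15, numpy 2.4.6 and pandas 2.3.3. The CPM used there were on library totals without TMM factors. The scripts were tested on simulated data. The CD45+ table of day 7 was used for marker levels only, without its unnamed line of totals, and the CD45+ table of day 3 was not used.

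Named genes were 9 chosen genes, the 12 genes of smallest p in each direction with at least 10 CPM in the higher group (since no gene was called), of which 1 is not reported here, up to 3 genes of smallest p in each list, and up to 5 in each direction of the interaction. Vwf was among the marker genes. The comparison, the 26 gene lists and the 18 marker lists were chosen with earlier results of these data known. Alternatives were DESeq2 1.42.0, limma-voom (limma 3.58.1), library totals, no filter, a fit of the compared groups alone, the replicate number as a block, leaving out each library, and, chosen after seeing the data, a fibroblast covariate and leaving out the 3 fibroblast-rich libraries. Every pair of libraries in a compared group differed by more than counting error, with a chi-square of at least 3.24 for each degree of freedom.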

Additional observations from a re-analysis of the deposited data

Results flagged for a closer look

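In 4 genes and 1 marker list, 1 abscopal library stood far from the other 3 by Dixon's criterion, among 78 genes and 36 list sums examined. Chance flags about 1 in 20 groups, so these 5 flags are no more than chance gives. Hmgb1 was low in abscopal replicate 3 at 124.7 CPM, against 154.5 to 159.6 CPM in the others. Irf9 was high in abscopal replicate 4 at 42.32 CPM, as was H2-Eb1 at 30.67 CPM, in the library that held 929.8 CPM of interferon gamma response genes. Rgs5 was high in abscopal replicate 1 at 54.72 CPM, and the adipocyte markers summed to 35.06 CPM in the same library, against 3.801 to 4.998 CPM in the other 3 abscopal libraries.

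In the interaction test described above, the difference of treated minus abscopal tumors changed between day 3 and day 7 for Gys1, by 1.032 on the log2 scale, and for Zfp768, by 0.875. Neither was called with only the compared groups in the fit. Zfp768 was also not called on library totals or in most fits that left out 1 library.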

How the results depend on the processing

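The comparison of treated with abscopal tumors gave 0 called genes under DESeq2, limma-voom, library totals, a fit of the compared groups alone, a fibroblast covariate and the removal of the 3 fibroblast-rich libraries or of any single library. Without the filter on low counts it gave 8, with 28569 genes tested. Library totals moved the median of all genes by -0.07. The smallest adjusted p was 0.0031 without the filter and at least 0.0899 under the other alternatives. The interaction between the days gave 2 genes under DESeq2 and limma-voom, 1 on library totals, where the median of all genes was -0.107, 20 without the filter and 0 with only the compared groups in the fit. Leaving out single libraries gave 0 to 3. The cause of these changes was not tested. All libraries held at least 1000000 counts, so a minimum depth left the fits as they were. The pseudo-F ran from 0.256 to 1.74 (the latter without treated replicate 3).

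Same-numbered libraries did not deviate together: the correlation of their deviations from the group means was -0.187, -0.168 and -0.38. Fibroblast content differed widely within groups and enters these deviations, so the correlations cannot show whether same-numbered libraries shared a mouse. With the number as a replicate block, 0 genes were called and 493 had an unadjusted p under 0.05. No library correlated best with its own number.

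Of 85 genes followed through the alternatives, 74 kept their direction under every alternative in which they passed the filter. Col3a1 turned to -0.46 under limma-voom, to -2.002 with the replicate block and to -0.356 without the fibroblast-rich libraries. Without those libraries Slc7a11 turned to -0.163, Cxcl9 to 0.028, Acta2 to 0.751, Rgs5 to 1.588 and Hbb-bs to -1.488. With single libraries left out, log2 fold changes ran from -0.17 to 0.526 for Gpx4, -0.02 to 0.868 for Slc7a11, -0.277 to 0.006 for Acsl4, -2.915 to 1.407 for Col3a1, -0.264 to 1.54 for Lum, -2.261 to 0.437 for Kdr, -1.878 to 0.594 for Pecam1, -1.918 to 0.153 for Acta2, -1.404 to 1.045 for Rgs5 and -0.629 to 3.183 for Hbb-bs.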
